A study of Mus musculus with 24 samples.

Results

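The collagen genes encode the chains of the collagen triple helix, the main structural protein of the extracellular matrix. The set was chosen by symbol alone: protein-coding genes of the mm9 GENCODE vM1 gene models named Col, a number, the letter a and a number. It held 43 genes of 22350 on chromosomes 1 to 19 and X, and the other 22307 protein-coding genes served as the comparison. At these genes, sites of Rev-erbα, a nuclear receptor, were counted in 3 lists, all from wild-type mice (C57BL/6J Wild Type) at zeitgeber time 10, that is 10 h after lights on. One list held Rev-erbα ChIP-seq peaks of epididymal white adipose tissue (eWAT, 2 libraries), the next those of a midbrain region, the ventral tegmental area (called brain below, 1 library). The last held Rev-erbα ChIP-exo borders of liver (2 libraries), the positions at which an exonuclease digesting the fragments stopped. Each tissue was taken whole and had 1 deposited list, so no spread between replicates could be computed and no test over samples was possible. The groups share their strain, genotype and time, and no group without Rev-erbα was analysed here. Liver differs from eWAT and brain in assay and kind of site as well as in tissue. In comparisons with liver, tissue and assay therefore cannot be told apart.

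Collagens are secreted or membrane-bound proteins built on repeats of glycine and 2 further residues. Fibrillar collagens form the cables of connective tissue, type IV collagens the network of basement membranes, and type VI collagens the beaded filaments that surround cells such as adipocytes. In fat and liver much of the collagen is made by fibroblasts, stellate cells and vascular cells, with contributions from the parenchymal cells. Rev-erbα is a repressor of the circadian clock, which binds DNA as a monomer at an AT-rich stretch followed by AGGTCA and recruits the NCoR and HDAC3 corepressors, and which can also be brought to DNA by other factors. A site near a gene is a position and no measure of its expression. In such tissue mixtures, a site used in few cells and a site weakly used in many cells cannot be told apart.

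Of the 43 collagen genes, 16 had an eWAT peak in the gene body or within 10 kb of a transcription start (37.2%, 95% Wilson interval 24.4 to 52.1), against 19.8% of the other protein-coding genes. A brain peak was listed for 18 (41.9%, 28.4 to 56.7), against 31.7%. A liver border pair, a plus-strand border followed by a minus-strand border 5 to 60 bp downstream, was found at 17 (39.5%, 26.4 to 54.4), against 39.7%. With this window the liver count lay at the level of the other genes, while the eWAT and brain shares lay above it. For brain the gap was less than the counting error. These contrasts changed with the window, as given below. Sites of all 3 lists were found at 7 genes (16.3%), against 7.31% of other genes. These were Col4a1 and Col4a2 of basement membranes, Col5a3 and Col27a1 of the fibrillar class, Col15a1, Col12a1 and Col23a1. No list had a site at 15 genes (34.9%), against 44.0% of other genes. Among these 15 were Col1a2, which supplies the other chain of type I collagen, the cartilage genes Col9a1, Col9a3 and Col11a1, and the type IV genes Col4a3 to Col4a6. The intervals cover counting error only, and no test of these counts was made.

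**Figure D1:**
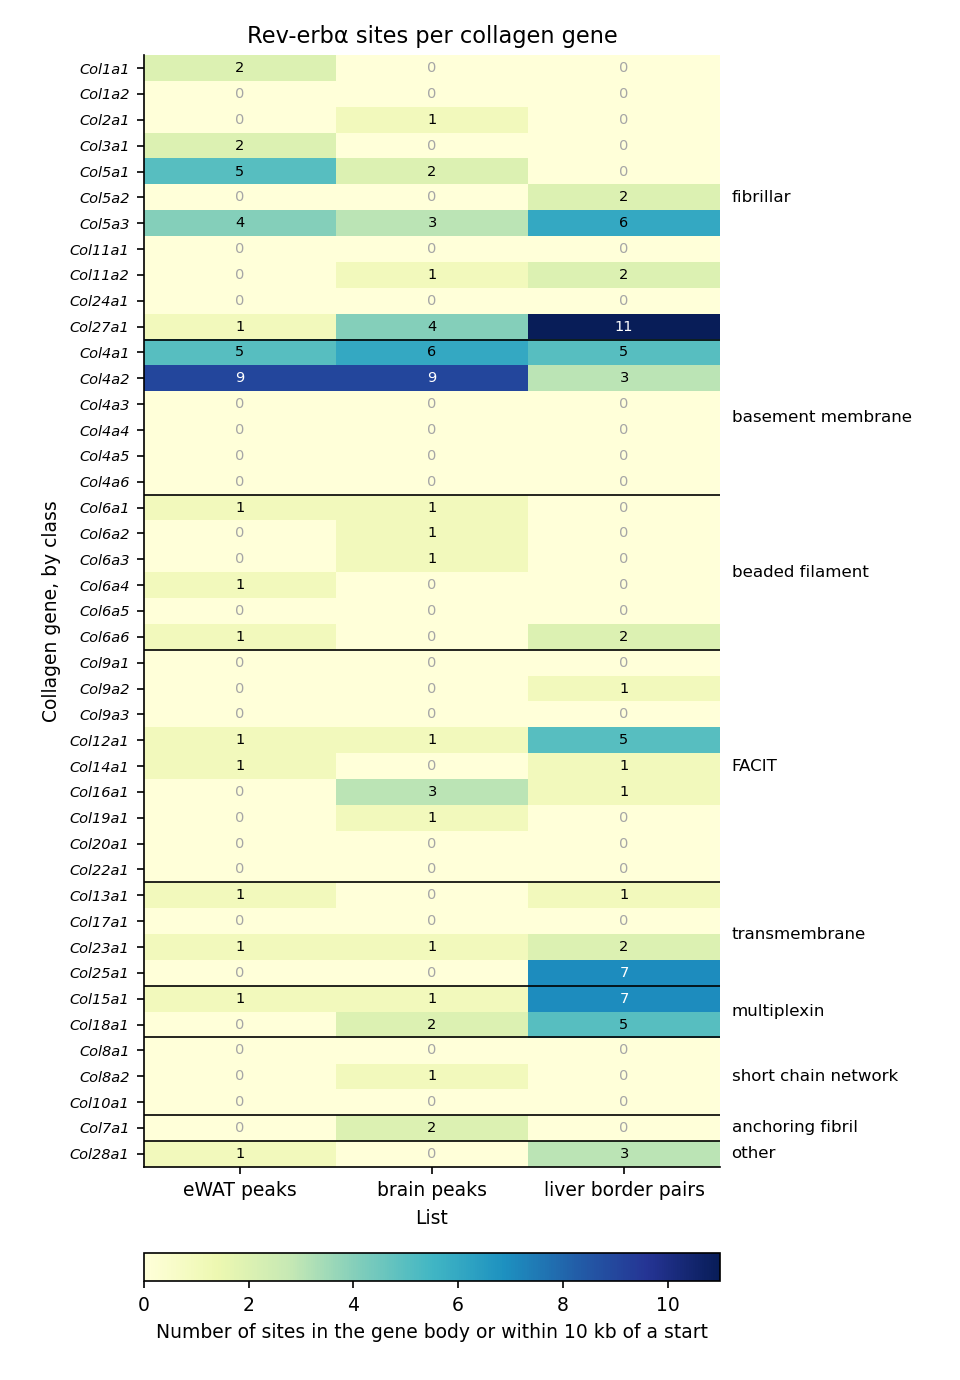
Number of Rev-erbα sites at each of the 43 collagen genes (rows, ordered by class) in the 3 lists (columns); the number and the colour give the sites in the gene body or within 10 kb of a start. Col4a2 has 9 eWAT and 9 brain peaks, Col27a1 has 11 liver border pairs, and 15 genes have 0 in every column.

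The sequences below show the sites on which the description turns, all from the plus strand of mm9 and written 5′ to 3′. The first set holds the 6 places where an eWAT peak and a brain peak overlapped, given as the eWAT peak. Capitals mark the Rev-erbα response element ANTAGGTCA or, without it, the core AGGTCA, on either strand. On the minus strand they appear as their reverse complements, and a sequence without capitals holds neither. They lie at chr4:47273542-47273691 (Col15a1), chr8:11279358-11279507 (Col4a1), chr8:11382683-11382832 (Col4a2), chr2:27809642-27809791 (the downstream site of Col5a1), chr2:27782416-27782565 (the upstream site of Col5a1) and chr9:20615306-20615455 (Col5a3).
Col15a1: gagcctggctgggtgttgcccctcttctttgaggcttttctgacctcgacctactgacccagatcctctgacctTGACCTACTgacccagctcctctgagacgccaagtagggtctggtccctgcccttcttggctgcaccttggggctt
Col4a1: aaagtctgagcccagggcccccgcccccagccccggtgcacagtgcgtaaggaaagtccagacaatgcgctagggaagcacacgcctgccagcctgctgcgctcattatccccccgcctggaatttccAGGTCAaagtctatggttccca
Col4a2: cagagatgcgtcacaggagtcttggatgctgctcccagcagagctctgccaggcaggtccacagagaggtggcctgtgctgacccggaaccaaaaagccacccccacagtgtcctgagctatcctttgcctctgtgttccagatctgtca
Col5a1 downstream: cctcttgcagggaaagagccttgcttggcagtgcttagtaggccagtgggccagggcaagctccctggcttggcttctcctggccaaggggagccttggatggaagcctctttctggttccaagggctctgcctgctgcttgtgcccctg
Col5a1 upstream: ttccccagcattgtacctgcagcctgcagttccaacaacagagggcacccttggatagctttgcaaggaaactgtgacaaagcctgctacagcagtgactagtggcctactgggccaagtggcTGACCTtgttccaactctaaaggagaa
Col5a3: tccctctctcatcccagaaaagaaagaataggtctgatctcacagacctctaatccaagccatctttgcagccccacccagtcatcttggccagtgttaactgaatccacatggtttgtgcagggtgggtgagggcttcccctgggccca

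The next 3 peaks were found in 1 tissue only. Those of Col4a2 in eWAT (chr8:11331755-11331904) and of Col5a3 in brain (chr9:20614823-20614972) are shown because they hold a response element. The peak of Col4a1 in eWAT (chr8:11271013-11271162) had the highest score of any collagen peak in that list and was added after its value was seen.
Col4a2, eWAT only: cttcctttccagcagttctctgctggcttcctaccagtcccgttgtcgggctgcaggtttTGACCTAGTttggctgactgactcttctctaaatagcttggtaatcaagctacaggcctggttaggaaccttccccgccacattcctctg
Col5a3, brain only: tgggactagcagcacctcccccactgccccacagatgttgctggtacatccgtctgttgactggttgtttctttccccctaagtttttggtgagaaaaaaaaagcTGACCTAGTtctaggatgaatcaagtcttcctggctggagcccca
Col4a1, eWAT only: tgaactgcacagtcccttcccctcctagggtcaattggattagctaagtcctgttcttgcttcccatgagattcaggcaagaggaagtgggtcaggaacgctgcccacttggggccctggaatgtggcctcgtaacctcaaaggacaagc

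The response element was present in the peak of Col15a1, in both tissues, and in the 2 peaks just shown for Col4a2 and Col5a3. The Col15a1 peak held the core AGGTCA 3 times, once within the response element. Over whole 150 bp peaks, 2 of 36 collagen peaks in eWAT held the element (5.56%), against 3.62% of all eWAT peaks. In brain 2 of 39 did (5.13%), against 1.78%. Within 50 bp of the peak centre the core AGGTCA was present in 7 of 36 eWAT peaks (19.4%), against 13.9% of the list, and in 6 of 39 brain peaks (15.4%), against 8.34%. With 2 collagen peaks a list, the shares for the full element rest on very few sites. Of the 6 shared places, 3 hold neither motif in the eWAT peak shown. At Col5a3 the eWAT and brain peaks overlap by 14 bp only, and the brain peak holds the core AGGTCA outside the overlap. A motif match is a description of letters and not of binding.

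Peaks in eWAT numbered 36 at collagen genes, those in brain 39, and liver border pairs 64. The pairs are not all separate, since a minus border can close several pairs, and the 64 pairs fall into 56 separate stretches. Introns held 33 of the 36 eWAT peaks, against 48.1% of all eWAT peaks, and 33 of the 39 brain peaks, against 40.9%. They held 57 of the 64 liver pairs, against 44.7% of all pairs. These shares follow in part from the choice of gene bodies as windows. Near transcription starts collagen sites were few. Within 1 kb of a start, 2 genes had an eWAT peak (4.65%), against 3.58% of other genes. They were Col1a1 (chr11:94800667-94800816, in an exon, 415 bp downstream of an annotated start and 3203 bp from the 5′ end of the gene) and Col6a6 (610 bp downstream of an internal start). A brain peak lay within 1 kb of a start at 5 genes (11.6%), against 18.3%, and these were Col2a1, Col4a1, Col4a2, Col11a2 and Col16a1. A liver border pair did so at 2 genes, Col15a1 and Col6a6 (4.65%), against 19.8%. These starts are internal, with the pairs 50196 and 50311 bp (Col15a1) and 18656 bp (Col6a6) from the 5′ end of the gene. Within 10 kb of a start the counts were 12 in eWAT (27.9%, against 14.2%), 14 in brain (32.6%, against 27.9%) and 12 in liver (27.9%, against 35.0%). With the gene body alone, the eWAT share was 34.9% (against 13.7%). The brain share was then 37.2% (against 18.2%) and the liver share 34.9% (against 24.9%). For the gene body or 50 kb of a start, the eWAT share was 53.5% (against 40.1%). The brain share was then 51.2% (against 52.0%) and the liver share 55.8% (against 61.5%).

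**Figure D2:**
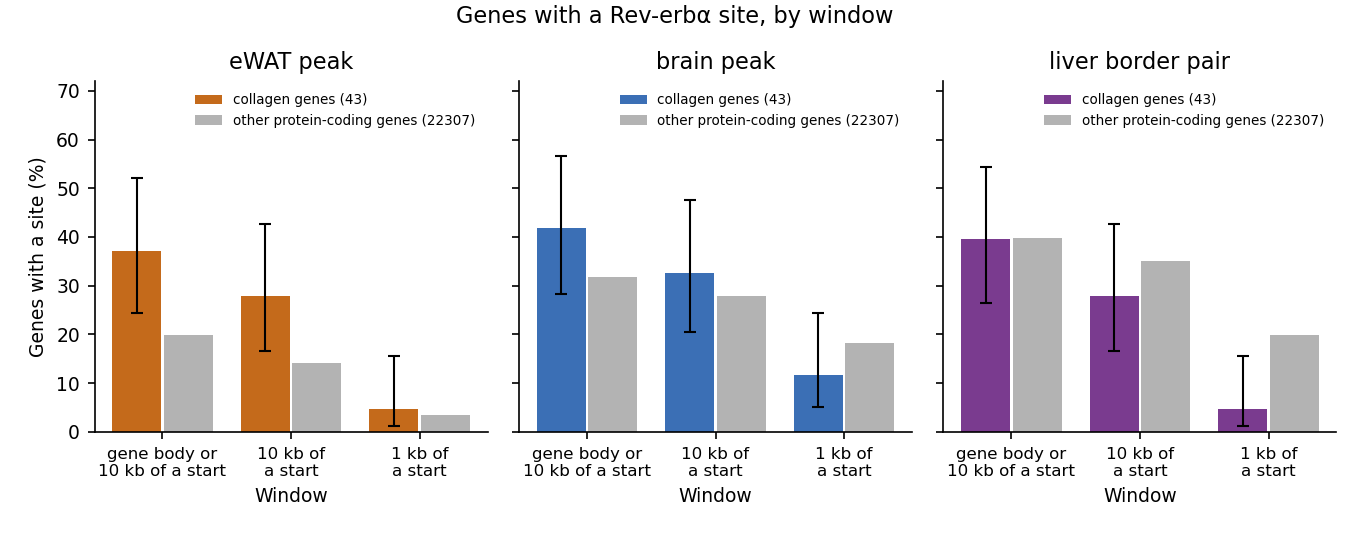
Percentage of genes with a site (vertical axis) for 3 windows (horizontal axis) in each list; coloured bars are the 43 collagen genes with 95% Wilson intervals, grey bars the 22307 other protein-coding genes. In eWAT the coloured bars are 37.2%, 27.9% and 4.65% against grey bars of 19.8%, 14.2% and 3.58%, whereas in liver the coloured bars of the windows around starts are below the grey ones.

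Collagen genes are long, which bears on every count made over gene bodies. Their median span was 114.4 kb (7.11 to 419.0 kb), against 15.4 kb for the other genes, and a longer gene has more room for sites. Among other genes an eWAT peak was listed for 11.2% of those under 20 kb and for 55.2% of those over 200 kb. In the span class of 100 to 200 kb, which holds 17 collagen genes, 10 had an eWAT peak, against 43.8% of other genes. In the same class 7 had a brain peak, against 50.7%, and 10 a liver pair, against 56.4%. Of the 8 collagen genes over 200 kb, 2 had an eWAT peak, 2 a brain peak (against 59.2%) and 3 a liver pair (against 61.2%). Counted by length, the collagen windows held 0.641 eWAT peaks per 100 kb, against 0.492 in the windows of other genes. The brain value was 0.695 against 0.717 and the liver value 1.14 against 1.63. Without Col4a1 and Col4a2, which hold many sites, these became 0.429 in eWAT, 0.485 in brain and 1.04 in liver. In eWAT the collagen value was thus above that of other genes with this locus and below it without it.

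**Figure D3:**
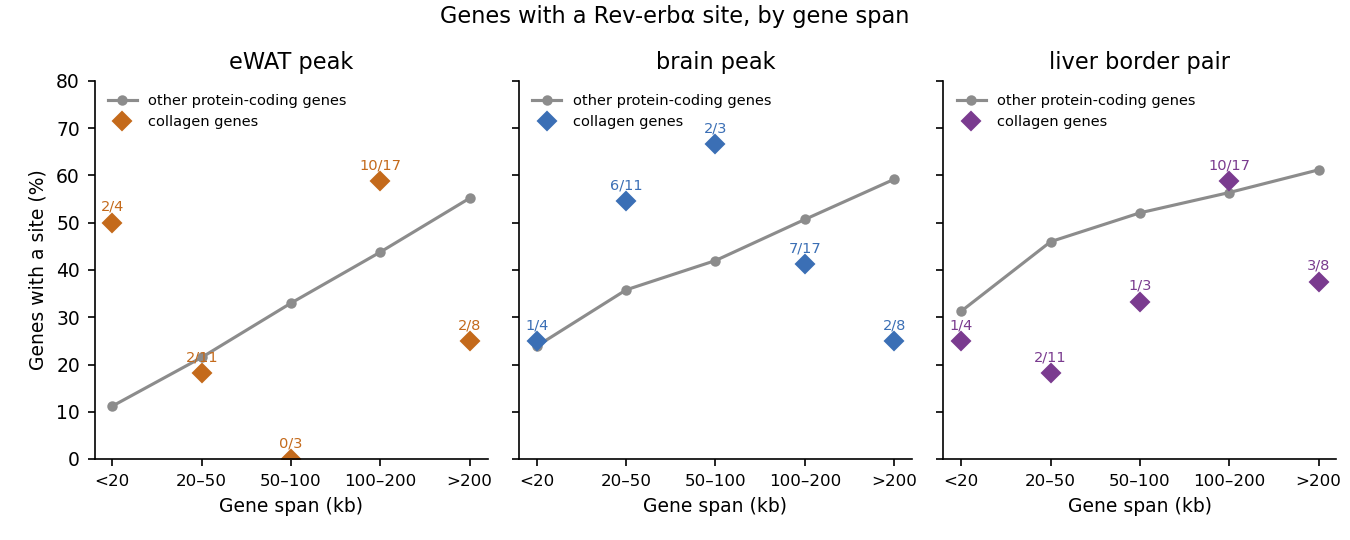
Percentage of genes with a site (vertical axis) by gene span in kb (horizontal axis) in each list; the grey line is the other protein-coding genes, and diamonds are collagen genes, labelled with the number that have a site over the number in the class. The grey line rises with span in every list, in eWAT from 11.2% to 55.2%, and the diamonds lie on both sides of it.

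Basement membrane collagens were divided between a locus with many sites and loci with none. Col4a1 and Col4a2, whose chains form the common type IV network, lie head to head on chromosome 8 with 5′ ends 21 bp apart, and together span 250.9 kb. This locus held 13 of the 36 eWAT collagen peaks, 13 of the 39 brain peaks and 8 of the 64 liver pairs. Col4a2 (chr8:11312805-11449287, 136.5 kb) had 9 peaks in each tissue in its gene body or within 10 kb of a start. That number was reached by 0.0314% of other genes in eWAT and by 0.0717% in brain, with genes of all spans included. Of these 9 peaks, 1 in eWAT and 2 in brain lie inside Col4a1 and were counted for both genes. Col4a1 (chr8:11198423-11312826) had 5 eWAT and 6 brain peaks. The other 4 type IV genes, Col4a3, Col4a4, Col4a5 and Col4a6, which supply the networks of kidney, lung and other specialised membranes, had no site in any list although each spans over 100 kb.

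The strongest of all collagen peaks in eWAT lay in an intron of Col4a1, 41739 bp downstream of the 5′ end (score 128.7, rank 27 of 9016, sequence shown above). Scores are the authors', with no unit stated, and rank 1 is the highest score of a list. It had 2 liver borders within 100 bp of its centre and no overlapping brain peak. A second eWAT peak of Col4a1 had a score of 58.8 (rank 192; chr8:11249901-11250050). A brain peak lay close to it without overlap (chr8:11249598-11249747, score 65.4, rank 438). The shared intronic site of Col4a1 scored 51.7 in eWAT (rank 266) and 65.4 in brain (rank 438). In Col4a2 the shared site also scored 51.7 in eWAT (rank 266) and 32.7 in brain (rank 3030). Thus 2 of the 13 peaks of each tissue at this locus coincided. Brain had a peak at the common start of both genes (chr8:11312480-11312629, score 21.8, rank 6985 of 10687). Another lay in Col4a1, 1117 bp upstream of the start of Col4a2 (chr8:11311614-11311763, score 18.2, rank 9969). The brain list had a lowest score of 14.5 and a median of 25.5, so both peaks were low-scoring. No eWAT peak was listed at the common start, the nearest lying 8595 bp away from the start of Col4a2 inside Col4a1 (score 13.2, rank 5026). The best liver pair of this locus lay in Col4a2 (rank 5153 of 26535 by the summed signal of its borders, 2.37), and the best of Col4a1 ranked 8171.

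**Figure D4:**
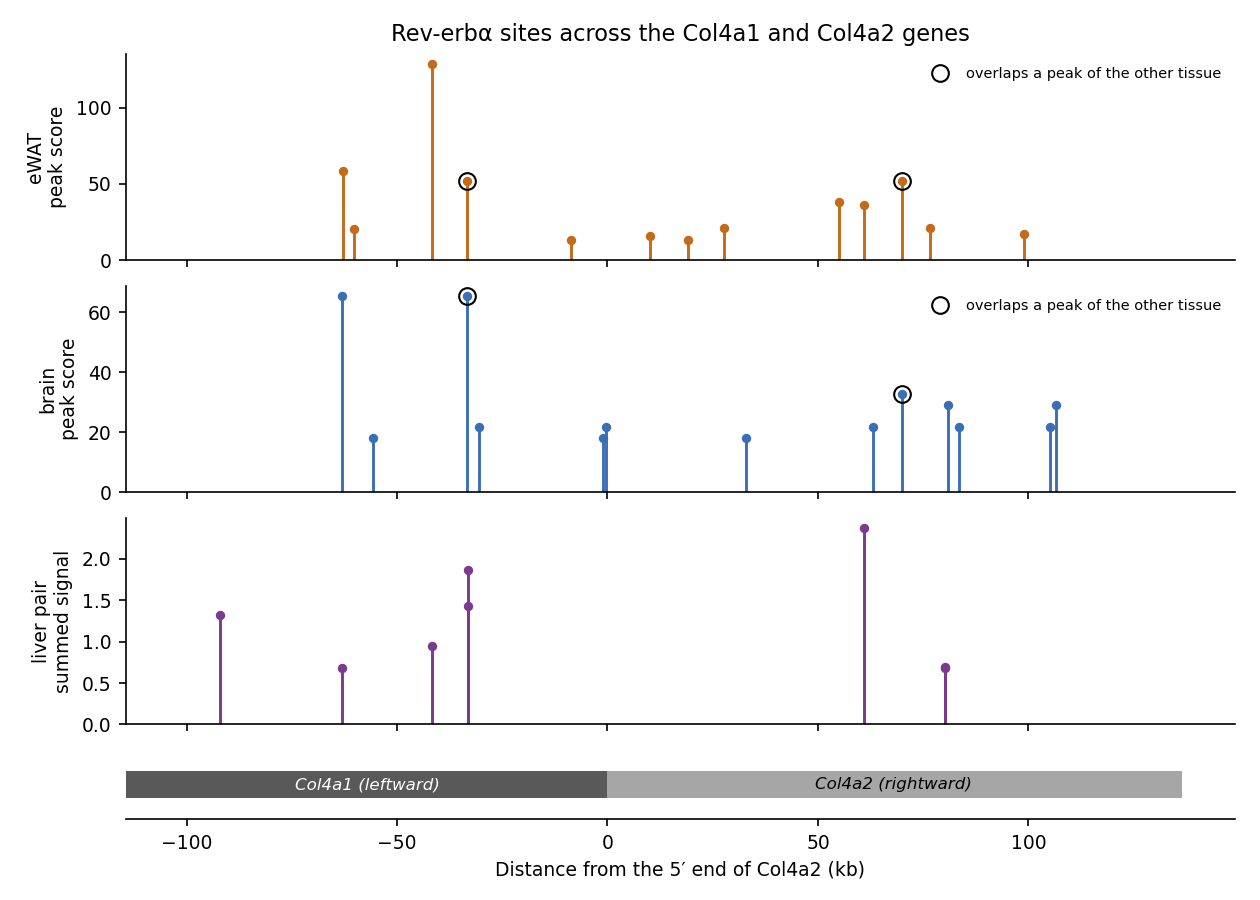
Rev-erbα sites across Col4a1 and Col4a2 by distance in kb from the 5′ end of Col4a2 (horizontal axis); stem height is the authors' peak score in eWAT and brain and the summed border signal in liver (scales differ between panels), rings mark peaks that overlap a peak of the other tissue, and grey bars are the gene bodies. The tallest eWAT stem (128.7) lies in Col4a1, 2 positions carry rings, and the brain peaks at and just left of 0 kb have no eWAT counterpart.

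Fibrillar collagens had an eWAT peak at 5 of 11 genes (against 19.8% of other genes), a brain peak at 5 (against 31.7%) and a liver pair at 4 (against 39.7%). Type V collagen limits the diameter of type I fibrils, and its genes Col5a1 and Col5a3 held 9 of the eWAT peaks. Col5a1 (chr2:27741945-27895034) had 5 eWAT and 2 brain peaks and no liver pair. Its downstream shared site was the highest-scoring brain peak of any collagen gene (score 130.9, rank 65 of 10687) and scored 41.5 in eWAT (rank 466). It lies in an intron 67771 bp from the 5′ end. The upstream shared site scored 15.2 in eWAT (rank 3959) and 43.6 in brain (rank 1451). A pair of eWAT peaks near the 5′ end of Col5a1, 2486 and 3181 bp downstream, had scores of 39.5 and 43.6 and no brain counterpart.

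Col5a3 (chr9:20574494-20619511), whose span of 45.0 kb is short for a collagen gene, had 4 eWAT peaks, 3 brain peaks and 6 liver pairs. Its best eWAT peak lay 1008 bp downstream of the start (score 39.5, rank 519). Its best brain peak, which holds the response element shown above, lay 4614 bp downstream (score 69.1, rank 387). The 2 best peaks of the tissues are therefore different places, while the shared site between them scored 13.2 in eWAT and 40 in brain. The Col5a3 liver pairs ranked from 3585 downward. Col5a2, the remaining type V gene, had 2 liver pairs and no peak.

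The genes of the bulk connective tissue collagens had low-scoring eWAT peaks or none. Col1a1 had its exonic peak (score 14.2, rank 4438) and an intergenic peak 8008 bp upstream (score 11.1, rank 6686). Col3a1, which forms thin fibres in soft organs, had 2 intronic eWAT peaks 2648 and 4397 bp downstream of its start (scores 15.2 and 12.2). Neither gene had a brain peak or a liver pair, and Col1a2 had no site. The eWAT list ran from a score of 10.1 to 281.6 with a median of 14.2, so these peaks lie near or below its middle. Among the cartilage-type fibrillar genes, Col2a1 had a brain peak 482 bp upstream of an internal start (score 40, rank 1821). Col11a2 had a brain peak 383 bp downstream of its start (score 21.8). Both liver pairs counted for Col11a2 lie within the neighbouring gene Rxrb.

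Col27a1 (chr4:62875038-62996025), a fibrillar collagen of cartilage, had the most liver border pairs of the set. There were 11, a number reached by 0.708% of other genes with all spans included, beside 4 brain peaks and 1 eWAT peak. The pair at chr4:62999879-62999899 lies outside the gene, and the nearest start is that of Orm1. The eWAT peak lay in an intron 35436 bp from the 5′ end (score 54.7, rank 231), and the best brain peaks scored 29.1 (rank 4034). None of these 5 peaks overlapped one of the other tissue. Of its liver pairs 4 were among the 6 of highest summed signal at collagen genes, with summed signals of 11.5, 11.5, 10.5 and 4.33 and ranks of 144, 149, 182 and 1402. The pairs of ranks 149 and 182 share their minus border and mark 1 place.

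Multiplexin collagens, which sit in vascular and epithelial basement membrane zones, had sites in most lists. Col18a1, the source of endostatin and a collagen made by hepatocytes, had 5 liver pairs, 2 brain peaks (score 21.8 each, 1 of them with 4 liver borders within 100 bp) and no eWAT peak. Its liver pairs included the highest-ranked of all collagen genes, with a summed signal of 12.7 (rank 108 of 26535), and 2 further ones at 6.36 (rank 601) and 4.01 (rank 1664). Col15a1 (chr4:47221033-47326039) had 7 liver pairs, the best with rank 6788. Its single eWAT peak (score 53.7, rank 244) and its single brain peak (score 43.6, rank 1451) overlapped by 142 bp, the place with the response element and no liver border within 100 bp. It lies in an intron 1888 bp downstream of an internal start.

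The liver pairs with the highest summed signal are shown next, from border to border with 10 bp added on each side. Capitals mark ATTGAT or its variant ATCGAT, cores of the binding motif of HNF6 (a liver transcription factor), or the FOXA motif TGTTTAC, on either strand. The variant was added to the search after these sequences were read. The pairs lie at chr10:76566536-76566581, chr10:76579443-76579488 and chr10:76621923-76621968 (Col18a1), chr4:62891103-62891148, chr4:62918447-62918491 and chr4:62891290-62891336 (Col27a1) and chr3:129917807-129917850 (Col25a1), with the added bases included. The third Col18a1 pair and the Col25a1 pair go beyond the 6 pairs that the rule allows and were added after their values were seen.
Col18a1, rank 108: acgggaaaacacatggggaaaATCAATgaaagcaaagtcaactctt
Col18a1, rank 601: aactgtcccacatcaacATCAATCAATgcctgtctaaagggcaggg
Col18a1, rank 1664: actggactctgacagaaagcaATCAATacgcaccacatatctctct
Col27a1, rank 144: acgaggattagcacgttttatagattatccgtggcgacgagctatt
Col27a1, rank 149: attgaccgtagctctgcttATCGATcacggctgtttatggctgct
Col27a1, rank 1402: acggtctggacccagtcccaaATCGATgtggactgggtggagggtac
Col25a1, rank 1475: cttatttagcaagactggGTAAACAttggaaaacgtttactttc

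All 3 Col18a1 pairs had borders 25 bp apart and held ATTGAT. Of the Col27a1 pairs shown, spaced 25, 24 and 26 bp, 2 held the variant ATCGAT. Pairs 24 to 26 bp apart made up 9 of the 64 collagen pairs, against 12.5% of all 26535 pairs. ATTGAT was present in 4 of these 9, against 36.8% of all pairs with that spacing, and in 5 of the 55 others, against 9.73%. No count of ATCGAT by spacing is given, since the variant was chosen from these same sequences. None of the 64 pairs held the response element, which 0.377% of all pairs held, and 2 held the core AGGTCA, against 7.83%.

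Transmembrane collagens stay anchored in the cell surface. Of these 4 genes, 2 had an eWAT peak (against 19.8% of other genes) and 1 a brain peak (against 31.7%). A liver pair was found at 3 (against 39.7%). Col25a1, known from neurons, had 7 liver pairs over its 419.0 kb, 2 of them sharing a border at rank 1475 and 1516, and no peak in eWAT or in brain. Col13a1 and Col23a1 had 1 eWAT peak each (scores 10.1 and 13.2), and Col23a1 also 1 brain peak (score 21.8) at another place. Col17a1, of skin, had no site.

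FACIT collagens coat the surface of fibrils. In this class an eWAT peak was found at 2 of 9 genes (against 19.8% of other genes), a brain peak at 3 (against 31.7%) and a liver pair at 4 (against 39.7%), all close to those shares. Col16a1 held the second-highest collagen peak of the brain list (chr4:129752458-129752607, in an intron 1755 bp upstream of an internal start, score 109.1, rank 106). It had 2 further brain peaks, 1 of them 24 bp upstream of the 5′ end of the gene (score 21.8), and no eWAT peak. Col12a1 had an eWAT peak (score 25.3, rank 1425) with 3 liver borders within 100 bp, a low-ranked brain peak elsewhere in the gene and 5 liver pairs. Col14a1 had an eWAT peak of score 12.2, Col19a1 a brain peak of score 21.8, and Col9a2 a single liver pair.

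The beaded filament genes of type VI collagen, abundant in fat, had an eWAT peak at 3 of 6 genes (against 19.8% of other genes) and a brain peak at 3 (against 31.7%). All were single peaks of modest rank. Col6a1 had an eWAT peak 5810 bp upstream of its start (score 13.2) and a brain peak 6473 bp upstream (score 18.2), which did not overlap. Col6a2 had an exonic brain peak (score 29.1) and Col6a3 an intronic one (score 21.8). Col6a4 and Col6a6 had eWAT peaks of scores 14.2 and 11.1, and Col6a6 also 2 liver pairs. Col6a5 had no site. Elsewhere, Col8a2, a collagen of the corneal endothelium, had 1 brain peak (score 21.8), and Col28a1 had 1 eWAT peak (score 11.1) and 3 liver pairs. Col7a1, which builds the anchoring fibrils of skin, was counted for 2 brain peaks that both lie in neighbouring genes. The stronger one is 15 bp from a start of Pfkfb4 (score 43.6) and the weaker one is inside Uqcrc1.

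In eWAT 12 of the 36 collagen peaks were within the best 10% of the list by score (33.3%, against 10.7% of all peaks, since tied scores share the better rank). These 12 came from 6 genes, namely Col4a1, Col4a2, Col5a1, Col5a3, Col15a1 and Col27a1. In brain 5 of 39 were (12.8%, against 10.9%), and in liver 9 of 64 pairs (14.1%, against 10.0%). The median score of collagen peaks was 16.2 in eWAT, against 14.2 for the list, and 21.8 in brain, against 25.5. The order of the 2 medians relative to their lists thus differed between the tissues, a difference that was not tested. In liver the median summed signal was 1.35 at collagen genes, against 1.41 over all pairs. Scores and signals were compared within a list only.

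**Figure D5:**
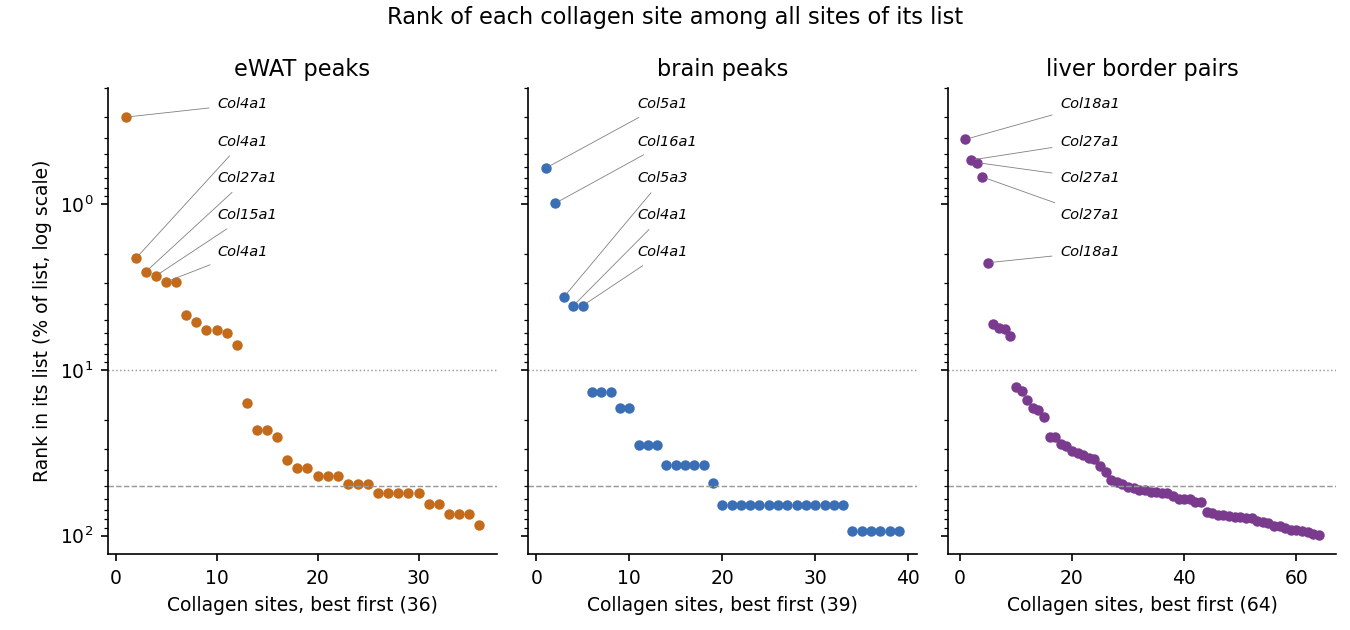
Rank of each collagen site as a percentage of its list (vertical axis, log scale, best at the top), with the sites ordered from best to worst (horizontal axis); the dotted line marks 10% and the dashed line 50%. The leading sites are named, and 12 of 36 eWAT points, 5 of 39 brain points and 9 of 64 liver points lie above the dotted line.

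Of the 36 eWAT collagen peaks, 6 overlapped a brain peak (16.7%, 7.87 to 31.9), against 7.83% of all eWAT peaks. These 6 were 15.4% of the brain collagen peaks, against 6.61% of the brain list. They came from 5 genes, Col15a1, Col4a1, Col4a2, Col5a1 and Col5a3. Liver borders were found no further than 100 bp from the centre for 7 of the 36 collagen peaks in eWAT (19.4%, 9.75 to 35.0), against 2703 of 9016 in the list. For brain peaks it was 6 of 39 (15.4%, 7.25 to 29.7), against 36.4%. Of the 6 shared places, measured from the eWAT peak, 1 had a liver border, that of Col4a2, against 423 of all 706 overlapping eWAT peaks. Measured from the brain peak, 2 had one, those of Col4a1 and Col4a2, against 418 of 706. These shares were not tested.

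Sites were also counted at the genes that make, process, bind and break down collagen. Of 56 such genes, 23 had an eWAT peak, 25 a brain peak and 26 a liver pair, beside 19.8%, 31.7% and 39.7% of non-collagen genes. Their median span was 25.8 kb, against 114.4 kb for the collagen genes and 15.4 kb for the non-collagen genes, so these counts too are not matched for length. Among lysyl oxidases, which cross-link fibrils, 4 of 5 had a peak in eWAT and 4 one in brain. Loxl4 (eWAT rank 192, brain rank 519) and Loxl2 (eWAT rank 1205, brain rank 771, liver rank 87) had sites in all lists. Of the 16 hydroxylases, glycosyltransferases and chaperones, 3 had an eWAT peak, 6 a brain peak and 8 a liver pair. None of the 16 had sites in all 3 lists, beside 7 of all 56 genes and 7.31% of non-collagen genes. Of the 8 genes of propeptide removal 5 had an eWAT peak, and Adamts2, the procollagen N-proteinase, had 3 sites in each list. Itga1, a subunit of a collagen-binding integrin, had 3 eWAT peaks (best rank 1425), 1 brain peak and 3 liver pairs. Among TGF-β genes, which drive collagen synthesis, Smad7, an inhibitor of the pathway, ranked 576 in eWAT and 2367 in brain, and its effector Smad3 ranked 3959 and 1821. Both also had liver pairs. The gelatinase Mmp9 had 1 low-ranked site in each list, with eWAT rank 6686, and Mmp2, the other gelatinase, had a brain peak of rank 39 that was singled out after its value was seen. Among 7 breakdown genes 3 had an eWAT peak, among 6 receptors 2, and among 4 fibril-binding genes 2. No count of this paragraph was tested.

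Cell type markers were checked by the same windows. Of 8 adipocyte genes, 7 had an eWAT peak, 4 a brain peak and 7 a liver pair, so that liver reached the same count as eWAT. Of 7 neuron genes, 2 had an eWAT peak, 5 a brain peak and 3 a liver pair. Of 7 hepatocyte genes, 0 had an eWAT peak, 1 a brain peak and 7 a liver pair. The shares of non-collagen genes were 19.8%, 31.7% and 39.7%. The dopamine neuron genes Th and Slc6a3 had no brain peak. Among 6 fibroblast and stellate cell genes, 1 had an eWAT peak (Dpt), 2 a brain peak and 1 a liver pair, and Pdgfra, Lrat and Des had none. Of 3 endothelial genes, 2 had an eWAT peak, 2 a brain peak and 2 a liver pair, but only 1 (Pecam1) had sites in all 3 lists. Of 3 macrophage genes, 1 had an eWAT peak, 1 a brain peak and 0 a liver pair. Which cells of the tissues carry the collagen sites was not tested.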

How the data were processed

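Per the labels' protocols, chromatin was fixed with formaldehyde, and ChIP-exo DNA was digested with exonucleases on the beads. The submitters' processing notes name mm9, HOMER, Bowtie 0.12.8 (ChIP-seq) and Bowtie 1.1.1 (ChIP-exo), without roles. How peaks and borders were called, and whether replicates were pooled, is not given in the sources used here. The deposited peaks (9016 in eWAT, 10687 in brain, each 150 bp) carry a score in whole steps of 1.013 (eWAT) or 3.636 (brain), with a largest deviation of 0.0498 and 0.0495. Per the file headers, the 245360 deposited borders carry a signal of unstated scale and a p-value (0.00503 to 0.0500). Read depth is unknown. The Wilson intervals are set by the numbers of genes or peaks counted, and leave out depth, number of libraries and calling threshold.

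The series holds 24 samples in 16 groups, and the 3 lists stand for 5 samples in 3 groups; the other 19 samples were not analysed here. All peaks, and all 245086 borders on the chromosomes used, lie within the mm9 chromosome lengths. With Python 3.11.15, numpy 2.4.6, pandas 2.3.3, scipy 1.17.1 and matplotlib 3.10.9, a site was placed by its central base in gene windows of GENCODE vM1 (22350 protein-coding genes, 70018 starts). Each plus border was joined to the next minus border within 200 bp, and the 26535 pairs 5 to 60 bp apart were kept. Introns and exons are those at the site's central base. Shared peaks overlap by at least 1 bp. Coordinates are 1-based, and sequences were read from the mm9 genome. The 16 motifs, sought on both strands, were AGGTCA and ANTAGGTCA (which contains it), the DR1 and DR2 repeats of AGGTCA with 1 or 2 bases between, ATTGAT and ATCGAT (HNF6), CAAAGTCCA (HNF4A), TTGCNNAA (C/EBP), the palindromic NF1 motif, TGANTCA (AP-1), GGGCGG (SP1), CCAAT (NF-Y), CACGTG (E-box), TGACGTCA (CRE), CCGGAAG (ETS) and TGTTTAC (FOXA). The counting steps were tested on simulated data.

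Named genes follow a rule: every collagen gene with a peak, those with the most or strongest liver pairs, and list genes with sites in all 3 lists (up to 3 a class). Of 91 list symbols, 90 were matched, some by older symbols from RefSeq names (GRCm38, names only). The members and lists were chosen with earlier results of these data known. No test of the gene set was made, since each group has 1 list.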

Additional observations from a re-analysis of the deposited data

How the results depend on the processing

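Of 44 alternative settings, 32 left a count of collagen genes or peaks within 1.5 times of its value, or a number of sites per 100 kb within its 95% Poisson interval. This rule follows the collagen value alone. The contrast with other genes changed in some of these 32, such as the gene body alone. With windows of 1 kb around starts, 2 genes had an eWAT peak, 5 a brain peak and 2 a liver pair. With only the sites above the list median, the counts were 8 in eWAT (18.6%, against 11.3% of other genes), 10 in brain (23.3%, against 19.1%) and 9 in liver (20.9%, against 23.5%). Liver pairs with both border p-values at most 0.01 were left at 4 genes (9.30%, against 4.34%). Genes with sites in all 3 lists numbered 3 with windows of 10 kb around starts only (6.98%, against 4.25%) and 11 with windows widened to 50 kb (25.6%, against 24.2%). With borders sought within 50 bp, 3 brain collagen peaks had one (7.69%, against 27.4%). Without Col4a1 and Col4a2, an alternative chosen after seeing the data, the collagen windows held 0.429 eWAT peaks per 100 kb and 0.485 brain peaks. These settings keep fewer or more sites or genes by construction.

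No paired analysis was possible because each group has 1 deposited list without replicate columns. Read depth is unknown, and the authors' threshold is not given in the sources used here, so a gene without a site is not shown to be unbound.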

Other observations

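Other motifs were sought in the 101 bp around peak centres and in the liver pairs with 10 bp added on each side. The adipocyte-associated C/EBP motif TTGCNNAA was present in 1 of 36 eWAT collagen peaks, against 1264 of 9016 in the eWAT list, and in 9 of 64 liver pairs, against 9.52%. In brain none of the 39 held it, against 3.98%. The AP-1 motif TGANTCA was present in 3 collagen sites of each list, against 4.79% of all sites in eWAT, 2.98% in brain and 2.13% in liver. The E-box CACGTG was present in 1 eWAT peak (against 9.11%), 2 brain peaks (against 6.13%) and 2 liver pairs (against 7.08%). The SP1 motif GGGCGG was present in 4 brain peaks (against 15.0%), those of Col2a1, Col4a1 and Col4a2 at their common start, Col16a1 at its start and Col7a1. CCAAT was present in 5 eWAT peaks (against 14.6%), 4 brain peaks (against 13.4%) and 4 liver pairs (against 8.10%). CCGGAAG was present in 1 eWAT peak, of Col5a3, and TGTTTAC in 3 liver pairs (against 3.20%). The DR1, DR2 and NF1 motifs, CAAAGTCCA and TGACGTCA were present in 0 collagen sites of the 3 lists, and in at most 0.711% of any whole list. None of these shares was tested.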
